A study of Mus musculus with 6 samples.

Results

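Slc2a3 and Pfkp encode a glucose transporter and a glycolytic enzyme, and their reads were followed through 6 RNA-seq libraries of mouse embryonic stem cells. These 2 genes are the rows named Slc2a3 and Pfkp among the 1653 genes listed in each library, and both were found in all 6. The cells are of strain C57BL/6, and 3 libraries are labelled wild type and 3 Yaf2KO. Cas9 was used to make the Yaf2KO cells. Cells of both genotypes grew in fetal calf serum with leukemia inhibitory factor on mitomycin-inactivated mouse embryonic fibroblasts, called feeders. No label says whether the 3 libraries of a genotype are separate clones or cultures, so p-values reflect only how these libraries vary, which can include technical variation. Yaf2 encodes a subunit of variant Polycomb repressive complex 1, which modifies histone H2A at many CpG-rich gene starts, and the study asks how Yaf2 affects gene expression. Yaf2 itself is not among the rows used here, so the knockout labels could not be checked on its transcript.

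Glucose enters cells through facilitative transporters of the SLC2A family. SLC2A3, also called GLUT3, has a high affinity for glucose and is a main transporter of pluripotent cells and neurons. Inside the cell, glucose is phosphorylated and enters glycolysis, where phosphofructokinase phosphorylates fructose 6-phosphate in the step that commits sugar to the pathway. PFKP is the platelet-type isoform of that enzyme, next to the liver and muscle isoforms PFKL and PFKM. Mouse embryonic stem cells grown with serum rely strongly on glycolysis.

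Slc2a3 (ENSMUSG00000003153) lies on chromosome 6, from 122727809 to 122801640 on the minus strand of mm10, and has 8 annotated transcripts. Its first-named transcript has 10 exons, is 3959 bases long and covers only the part from 122727809 to 122742745. Pfkp (ENSMUSG00000021196) lies on chromosome 13, from 6579768 to 6648777 on the minus strand, and has 13 annotated transcripts. Its first-named transcript has 22 exons and 2679 bases. The counts are sums over whole genes and do not separate transcripts, exons or UTRs. The pseudogene Gm4482 lies inside the Slc2a3 gene on the same strand and had 0 to 11 reads per library. Pitrm1, on the opposite strand, overlaps the 3′ end of Pfkp by 748 bases. Its own reads were not analysed here, and no strand setting of the counting is given in the sources used here, so reads from that overlap are uncertain.

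Because Yaf2-containing complexes are known to act at CpG-rich gene starts, the bases before the Pfkp start are shown, from RefSeq (GRCm38.p6, the mm10 assembly), chr13:6648772-6649021, minus strand. The table used has a window for 1 of the 2 genes; it has none for Slc2a3. Capitals mark CG dinucleotides.
Pfkp: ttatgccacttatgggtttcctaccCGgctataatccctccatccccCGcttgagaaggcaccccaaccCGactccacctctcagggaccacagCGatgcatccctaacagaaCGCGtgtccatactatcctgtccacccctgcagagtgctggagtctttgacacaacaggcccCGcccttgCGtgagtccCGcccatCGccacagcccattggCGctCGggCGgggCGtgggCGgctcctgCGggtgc
These 250 bases hold 16 CG dinucleotides, against a median of 6 over 32851 RefSeq windows of that length, and 74.6% of the windows hold fewer. This describes the letters only, since no binding or histone mark was measured.

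The rows are raw read counts of a part of each library, and the sum of the listed genes, 56367 to 72975 in wild type and 143682 to 451075 in Yaf2KO, is not the sequencing depth. Counts are therefore compared in 3 ways: as they stand, as a share of the listed sum, and as a ratio of one gene to another within a library. Among the marker lists, 7 of 20 embryonic stem cell markers were listed, Nanog, Klf4, Klf5, Tbx3, Dppa3, Prdm14 and Tet2, and had reads in every library. Pou5f1, Sox2 and Zfp42 were not among the rows used here. Of 30 fibroblast markers 7 were listed, Col1a1, Acta2, Tagln, Cnn1, Postn, Prrx1 and Myl9. Their summed share was 2.17 to 3.02% in wild type and 1.001, 4.98 and 2.85% in Yaf2KO 1 to 3. Tagln had the most reads of the 7 in each library. It had 1200 of 1980, 900 of 1634 and 780 of 1583 fibroblast marker reads in wild type 1 to 3. In Yaf2KO 1 to 3 it had 2493 of 4515, 7092 of 12495 and 2428 of 4091. Among the 7, Postn was at 0 in wild type 3 and Yaf2KO 1, and Prrx1 in Yaf2KO 1. Yaf2KO 1 stood apart from Yaf2KO 2 and 3 in the 2 Y-linked genes listed. Uba1y, which encodes a ubiquitin-activating enzyme, had 108, 60 and 93 counts in the wild-type libraries, 978 in Yaf2KO 1, and 13 and 7 in Yaf2KO 2 and 3. Zfy1, a zinc finger gene, had 8, 8 and 6 counts, then 837 in Yaf2KO 1, and 1 and 0 in Yaf2KO 2 and 3. Of the listed sum, Uba1y took 0.106 to 0.165% in wild type, 0.217% in Yaf2KO 1, and 0.00518 and 0.00487% in Yaf2KO 2 and 3. Zfy1 took 0.00822 to 0.0142% in wild type, 0.186% in Yaf2KO 1, and 0.000398 and 0% in Yaf2KO 2 and 3. Yaf2KO 1 thus lay above every wild-type library in both shares, and Yaf2KO 2 and 3 below. Results are therefore also given without Yaf2KO 1 and without Yaf2KO 2 and 3. RNA of stem cells and of feeders cannot be told apart for Slc2a3 or Pfkp, nor can fewer cells of a type from less RNA per cell.

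Slc2a3, the uptake gene, had more reads in each Yaf2KO library than in any wild-type library. Wild type 1 to 3 had 10080, 8630 and 8236 counts, and Yaf2KO 1 to 3 had 53271, 33920 and 28258. The wild-type libraries lay within 1.22-fold of each other and the Yaf2KO libraries within 1.89-fold. The means were 8982 ± 971 and 38483 ± 13116 counts (SD, n = 3 each), a ratio of 4.28 that is not corrected for depth. Left out one at a time, the libraries moved this ratio between 3.46 and 4.85.

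Pfkp, the enzyme gene, also had separate groups, but 1 library held most of its reads. Wild type 1 to 3 had 1202, 1375 and 1472 counts, and Yaf2KO 1 to 3 had 11745, 2621 and 2228. Yaf2KO 1 stood 5.27-fold above Yaf2KO 3, whereas the wild-type libraries lay within 1.22-fold. The means were 1350 ± 137 and 5531 ± 5385 counts (SD, n = 3 each), a ratio of 4.10. Without Yaf2KO 1 the ratio was 1.80.

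**Figure D1:**
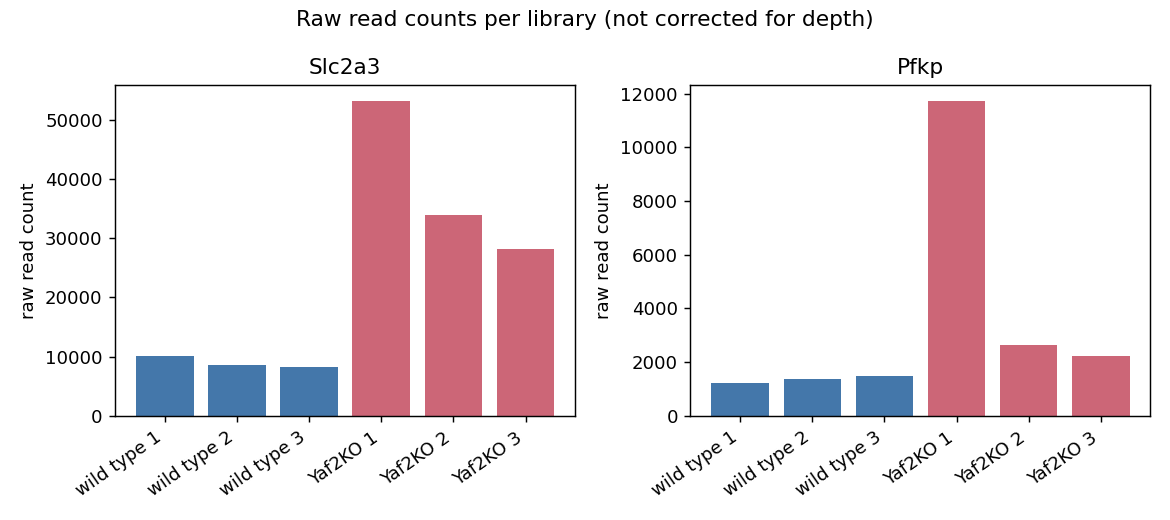
Raw read counts (y axis, from 0) of Slc2a3 and Pfkp in each of the 6 libraries (x axis; blue wild type, red Yaf2KO), 1 bar per library. Slc2a3 was high in the 3 Yaf2KO libraries (28258 to 53271), whereas Pfkp reached 11745 in Yaf2KO 1 and stayed at 2228 and 2621 in the other two.

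Higher raw counts were common to the listed genes and are no mark of these 2. Every Yaf2KO library exceeded every wild-type library in 27.4% of all listed genes. That percentage includes genes with few or no reads in any library, as only 161 of the 1653 averaged at least 100 counts. The listed sum moved the same way. Against the mean of wild type, the median of the 161 genes that averaged at least 100 counts over the 6 libraries stood at 7.78-fold in Yaf2KO 1, 3.56-fold in Yaf2KO 2 and 1.71-fold in Yaf2KO 3. Genes high in Yaf2KO alone can pass that minimum, so the medians depend in part on the choice. Over the 122 genes that averaged at least 50 counts in wild type, chosen with no Yaf2KO value, they were 6.55-, 3.34- and 1.66-fold. Slc2a3 stood at 5.93-, 3.78- and 3.15-fold in the same libraries, below the median gene in the first and above it in the others. In order of this fold, 49, 89 and 126 of the 161 genes lay below it. Pfkp stood at 8.70-, 1.94- and 1.65-fold, with 93, 10 and 73 of the 161 genes below it. Both members lay on the same side of the median gene in each library with either choice of genes.

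As a share of the listed counts, Slc2a3 did not separate the genotypes. It took 15.4% of all listed reads in wild type 1 (95% interval 15.1 to 15.6%, exact binomial), 15.3% in wild type 2 (15.0 to 15.6%) and 11.3% in wild type 3 (11.1 to 11.5%). In Yaf2KO 1 to 3 it took 11.8% (11.7 to 11.9%), 13.5% (13.4 to 13.6%) and 19.7% (19.5 to 19.9%). These intervals cover counting error only. Libraries of 1 genotype differed by more than that: the lowest and highest shares were wild type 3 and Yaf2KO 3, and the groups overlapped. The group means were 14.0 ± 2.34% and 15.0 ± 4.13% (SD, n = 3 each). The difference in mean log2 share was 0.08 (SE 0.27, p = 0.9 by an exact two-sided permutation test, adjusted p = 0.9 over 3 tests). With 3 libraries against 3 this test cannot go below 0.1. The sign of this difference turned without wild type 3 (-0.07) and without Yaf2KO 3 (-0.13).

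The share of Pfkp overlapped between the genotypes as well, with both its highest and its lowest value in Yaf2KO. It was 1.83% (1.73 to 1.94%), 2.44% (2.31 to 2.57%) and 2.02% (1.92 to 2.12%) in wild type 1 to 3. In Yaf2KO it was 2.60% (2.56 to 2.65%), 1.04% (1.004 to 1.08%) and 1.55% (1.49 to 1.62%). Yaf2KO 2 and 3 lay below every wild-type library and Yaf2KO 1 above every one. The means were 2.10 ± 0.311% and 1.73 ± 0.796% (SD, n = 3 each), with a difference in mean log2 share of -0.37 (SE 0.40, exact permutation p = 0.5, adjusted p = 0.75). Without Yaf2KO 1 the difference was -0.71, and without Yaf2KO 2 it was -0.05. For comparison, shares that did not overlap between the genotypes were found in 6.53% of all listed genes, which include genes with few or no reads. With Yaf2KO 2 and 3 left out, the difference in mean log2 share was 0.32 for Pfkp and -0.23 for Slc2a3, each of the opposite sign to the value over all libraries.

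**Figure D2:**
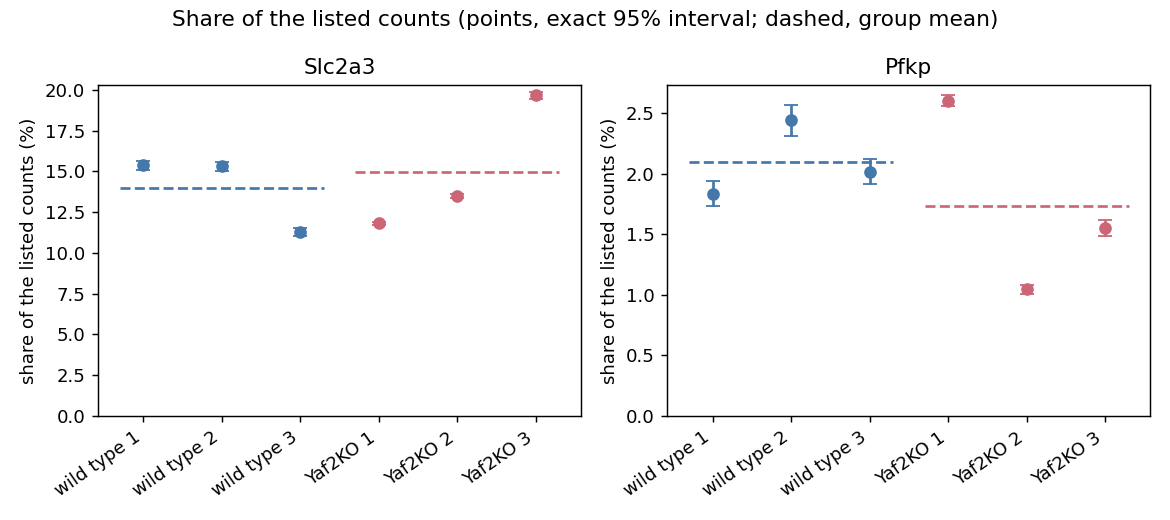
Share of the listed counts in percent (y axis, from 0) for Slc2a3 and Pfkp in each library (x axis); bars are exact 95% intervals of counting error and dashed lines are group means. Slc2a3 ran from 11.3% in wild type 3 to 19.7% in Yaf2KO 3, Pfkp from 1.04% in Yaf2KO 2 to 2.60% in Yaf2KO 1, and the genotypes overlapped for both genes.

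In the model over all listed genes neither gene was called. Counts were fitted with edgeR's quasi-likelihood test after TMM scaling, so that a value of 0 is the change of the bulk of the list. It called 3 of 376 tested genes (0.798%) at a Benjamini-Hochberg adjusted p under 0.05, and 0 of the 2 members; 16 of the 376 genes had an unadjusted p under 0.05, and neither member was among them. Slc2a3 had 150425, 148934 and 118879 CPM (scaled counts relative to the listed sum) in wild type, and in the knockout libraries 109732, 133803 and 213019. The log2 fold change of Slc2a3 was 0.13 (SE 0.32, 95% interval -0.58 to 0.83, adjusted p = 0.95 by edgeR). Pfkp had 17938, 23729 and 21247 CPM in wild type, and in the knockout libraries 24193, 10339 and 16795. The log2 fold change of Pfkp was -0.29 (SE 0.36, 95% interval -1.08 to 0.50, adjusted p = 0.95 by edgeR). The median tested gene stood at -0.03. These intervals do not exclude a change of either sign relative to the typical listed gene.

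Scaling decides what is compared. With all libraries taken as equally deep, Slc2a3 came to 2.10 (SE 0.49, adjusted p = 0.0168 by edgeR) and Pfkp to 2.03 (SE 0.69, adjusted p = 0.0266 by edgeR), and 75.7% of 415 tested genes were called higher in Yaf2KO. The median gene then stood at 2.12, so both members lay within 0.1 log2 units of it. Depth and a change common to the listed genes cannot be told apart here.

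**Figure D3:**
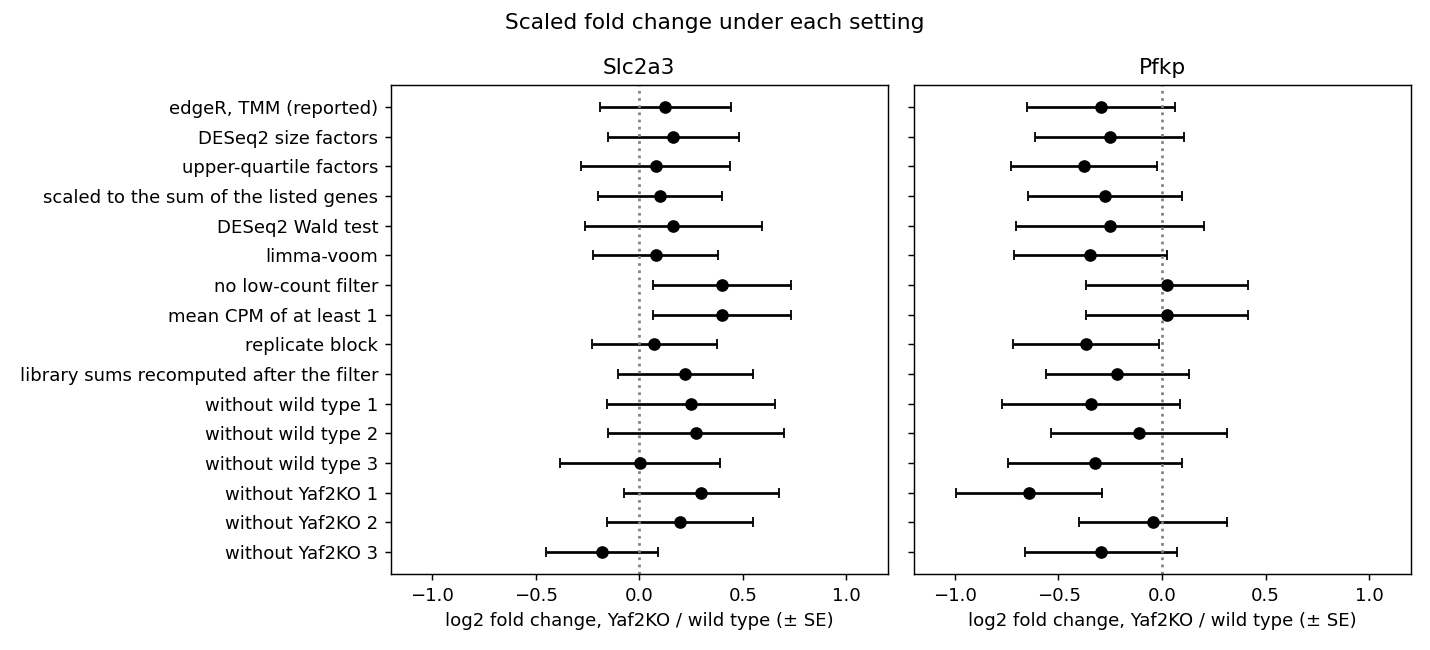
Log2 fold change of Slc2a3 and Pfkp (x axis, Yaf2KO over wild type, with SE) under the reported edgeR fit and 15 other settings (y axis), all of which scale on the listed genes. Slc2a3 ran from -0.18 without Yaf2KO 3 to 0.40 without a low-count filter, and Pfkp from -0.64 without Yaf2KO 1 to 0.02 without that filter.

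The ratio of the 2 genes within a library needs neither depth nor scaling. There were 8.39 reads of Slc2a3 for each read of Pfkp in wild type 1 (95% interval 7.90 to 8.91), 6.28 in wild type 2 (5.93 to 6.65) and 5.60 in wild type 3 (5.29 to 5.92). In Yaf2KO 1 to 3 there were 4.54 (4.45 to 4.63), 12.9 (12.4 to 13.5) and 12.7 (12.1 to 13.2). Yaf2KO 2 and 3 lay above every wild-type library and had overlapping intervals, whereas Yaf2KO 1 lay below every one. The same libraries, Yaf2KO 2 and 3, had the low counts of Uba1y and Zfy1, and the part of that split in this ratio was not tested. The genotypes therefore overlapped, and the 2 genes did not keep a constant proportion: the highest ratio was 2.85 times the lowest.

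The mean ratio was 6.75 ± 1.46 in wild type and 10.1 ± 4.78 in Yaf2KO (SD, n = 3 each). The mean log2 ratio differed by 0.45 (SE 0.53, exact permutation p = 0.4, adjusted p = 0.75). It exceeded every wild-type value in 2 of 3 Yaf2KO libraries. Without Yaf2KO 1 the difference was 0.95 with separate groups (exact permutation p = 0.2, the smallest that 2 against 3 libraries allow). Without Yaf2KO 2 it was 0.19 and without Yaf2KO 3 0.20. With both of these left out it turned to -0.55, where 1 library against 3 cannot give an exact p below 0.5. Of the 160 other genes averaging at least 100 counts, 8.75% had a ratio to Pfkp whose groups did not overlap, and 8.12% such a ratio to Slc2a3. Genes high in Yaf2KO alone can pass that minimum, so these percentages depend in part on the choice of genes.

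**Figure D4:**
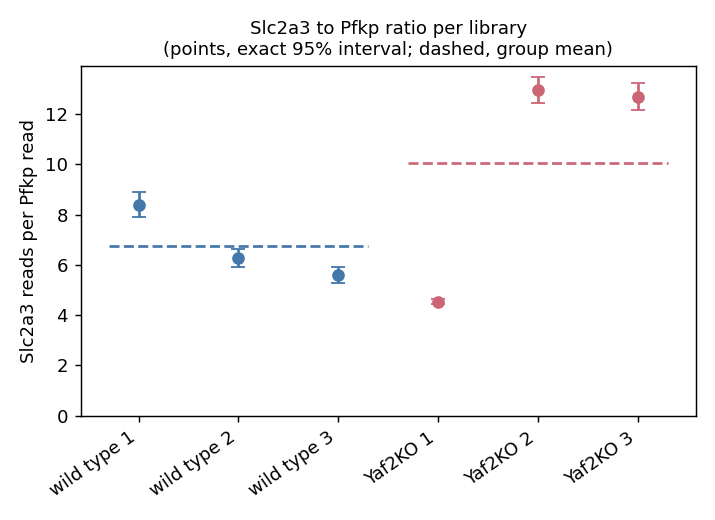
Reads of Slc2a3 per read of Pfkp (y axis, from 0) in each library (x axis; blue wild type, red Yaf2KO), with exact 95% intervals and dashed group means. Wild type lay between 5.60 and 8.39, Yaf2KO 1 below it at 4.54, and Yaf2KO 2 and 3 above it at 12.9 and 12.7.

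Per length, Slc2a3 was the more abundant of the 2 transcripts in each library. Per kilobase of all annotated exons, its reads exceeded those of Pfkp 10.3- to 15.5-fold in wild type and 8.39- to 23.9-fold in Yaf2KO. The annotated exons of Pfkp include retained introns and add up to 13401 bases, against 7245 for Slc2a3. Per kilobase of the first-named transcript of each gene the excess was smaller, 3.79- to 5.67-fold in wild type and 3.07- to 8.76-fold in Yaf2KO. Ranked by reads per kilobase of all exons among 1640 genes with a length, Slc2a3 stood between 5th and 10th in each library. Pfkp stood between 39th and 77th.

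Few other genes of sugar metabolism were listed. Of 98 symbols in 7 lists (glucose transporters, hexokinases, phosphofructokinases and their regulators, other glycolytic enzymes, lactate and pyruvate handling, pentose phosphate and glycogen, hypoxia), 3 were among the rows: Slc2a3, Pfkp and Slc2a13. Slc2a13, a proton-coupled myo-inositol transporter of the same family, had 0 counts in each wild-type library, which allows up to 3, and 6, 4 and 1 in Yaf2KO. It had too few reads to be tested. Of the 16 other glycolytic enzymes, of the 6 hexokinase symbols and of the 19 hypoxia genes, 0 were listed, so the pathway beyond these members was not analysed here. Other glucose transporters such as Slc2a1, the broadly expressed GLUT1, were not among the rows either.

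The deposited annotation attaches the term glycolytic process to 14 listed genes, Pfkp among them, and 10 of the 14 are pseudogenes in the reference annotation. Only Pfkp and the processed pseudogene Gm12070 averaged at least 10 counts. Gm12070 had 21, 24 and 27 in wild type, against 167, 103 and 45 in the knockout libraries. Reads of a pseudogene can belong to its parent gene, so these counts are uncertain.

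Slc2a3 has stem cell genes as neighbours. Of the 44 genes annotated within 500 kb of it, 4 were listed, among them Nanog, a core pluripotency factor 13176 bases away, and Dppa3, a maternal and germ-line factor 97537 bases away. The other two are pseudogenes with at most 18 reads per library. Of the 11 genes annotated within 500 kb of Pfkp, 0 were listed. Slc2a3 had 4.50, 4.93 and 2.99 reads per read of Nanog in wild type, and 2.66, 3.89 and 10.03 in Yaf2KO. Yaf2KO 1 lay below every wild-type library, Yaf2KO 2 within their range and Yaf2KO 3 above it. The ratio of Nanog to Dppa3 ran from 4.34 to 6.62 over the 6 libraries, a 1.52-fold range, against 3.78-fold for Slc2a3 to Nanog and 3.26-fold for Slc2a3 to Dppa3. These neighbours were chosen by position and compared after their values were seen.

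Marker sums moved between the Yaf2KO libraries as well. The 7 listed stem cell markers took 5.93 to 6.29% of the listed sum in each wild-type library and 9.32, 6.07 and 3.73% in Yaf2KO 1 to 3. Nanog alone made up 47.7 to 60.1% of these reads in each library. Klf4, a naive pluripotency factor, fell in the same order over Yaf2KO 1 to 3 but lay above every wild-type library in each of them. It had 1622 to 2309 CPM in wild type and 10450, 4418 and 3822 in Yaf2KO 1 to 3 (adjusted p = 0.177 by edgeR). In CPM, none of the other listed stem cell markers lay above wild type in every Yaf2KO library. The edgeR log2 fold changes were 1.61 for Klf4, 1.18 for Tbx3 and 0.03 for Tet2. They were -0.09 for Nanog, -0.16 for Dppa3, -0.21 for Klf5 and -0.24 for Prdm14. Slc2a3 had 2.45, 2.58 and 1.80 reads per stem cell marker read in wild type and 1.27, 2.22 and 5.27 in Yaf2KO. Per fibroblast marker read it had 5.09, 5.28 and 5.20 in wild type, nearly constant, and 11.8, 2.71 and 6.91 in Yaf2KO. Pfkp had 0.292, 0.411 and 0.321 reads per stem cell marker read in wild type and 0.279, 0.172 and 0.416 in Yaf2KO. Per fibroblast marker read Pfkp had 0.607, 0.841 and 0.930 in wild type and 2.60, 0.210 and 0.545 in Yaf2KO, a 12.4-fold range. The Pfkp share was highest in Yaf2KO 1, where fibroblast markers took the smallest share, and lowest in Yaf2KO 2, where they took the largest. Between these extremes the opposite order did not hold throughout. In wild type 1 to 3 and Yaf2KO 3 the Pfkp shares were 1.83, 2.44, 2.02 and 1.55%. Fibroblast markers took 3.02, 2.90, 2.17 and 2.85% in the same libraries. Tagln had the most reads of the fibroblast markers in each library. The part of either marker sum in the results for Slc2a3 and Pfkp was not tested.

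The spread of both members within Yaf2KO lay inside the range of the list. The SD of the log2 share over the 3 Yaf2KO libraries was 0.38 for Slc2a3 and 0.66 for Pfkp, with a median of 0.60 over the 161 genes averaging at least 100 counts. Of these, 39 had a smaller SD than Slc2a3 and 90 a smaller one than Pfkp. In wild type the SDs of Slc2a3 and Pfkp were 0.26 and 0.21, with a median of 0.36. Genes high in Yaf2KO alone can pass the minimum of 100 counts, so these medians and positions depend in part on that choice.

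The genes whose reads kept the steadiest ratio to each member differed between the members. Likeness was the SD, over the 6 libraries, of the log2 ratio of a gene's count to the member's, among genes averaging at least 100 counts. Closest to Slc2a3 were Slc27a2, a fatty acid transport protein gene (SD 0.21), Zic5, a zinc finger transcription factor (0.22), Pou3f1, a POU factor of the primed epiblast (0.22), and Mmp25, a membrane-bound matrix metalloproteinase (0.24). The wild-type counts of Slc27a2 were 311, 305 and 348 and the Yaf2KO counts 1956, 1596 and 1153, and it stayed between 0.0309 and 0.0471 reads per Slc2a3 read. The median SD over 160 genes was 0.64.

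Closest to Pfkp were Rps6kl1, which encodes a kinase-like protein of the ribosomal S6 kinase family (SD 0.21), Pcsk1n, the gene of the proSAAS precursor (0.27), Il17rc, an interleukin-17 receptor subunit (0.27), and Prune2 (0.27). The wild-type counts of Rps6kl1 were 96, 106 and 117 and the Yaf2KO counts 793, 252 and 143, between 0.0642 and 0.0961 reads per Pfkp read. The median SD to Pfkp was 0.71. Slc2a3 and Pfkp had an SD of 0.63 to one another, so each was near the middle of the other's order, with Pfkp 78th of 160 genes for Slc2a3 and Slc2a3 66th for Pfkp. This order is a description of 6 libraries, in 2 genotypes, that share their shift in raw counts. The minimum mean count was taken over all 6 libraries, so it also admits genes with high counts in Yaf2KO only. Il17rc, with 56, 40 and 67 counts in wild type, reached it through Yaf2KO (518, 104 and 106). Both median SDs and both positions therefore depend in part on that choice of genes.

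**Figure D5:**
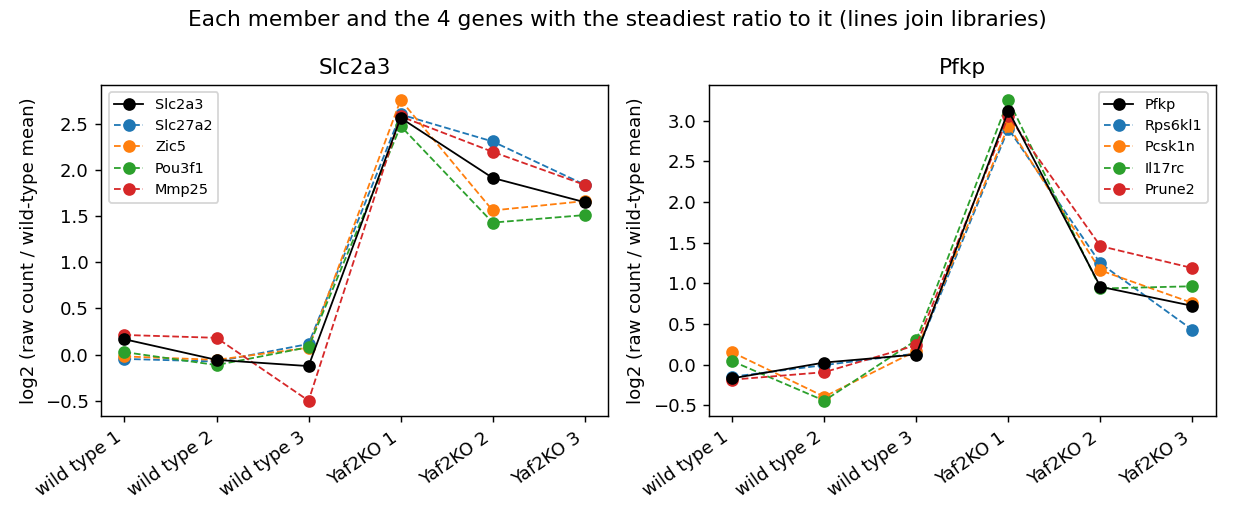
Log2 of the raw count over the wild-type mean (y axis) in each library (x axis) for Slc2a3 and Pfkp (black) and the 4 genes with the steadiest ratio to each (dashed). All of these genes peak in Yaf2KO 1, in raw counts that are not corrected for depth. From there, Slc2a3 falls less in Yaf2KO 2 and 3 than Pfkp. The genes around each member were chosen for a steady ratio to it in these same libraries. They therefore follow its course by that choice.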

How the data were processed

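RNA-seq read counts of 6 libraries (3 wild type, 3 Yaf2KO; groups and numbers from the sample titles) were analysed. The authors deposited raw counts per gene for 1 library per file, per the file headers; HTSeq 0.6.0, TopHat2 2.0.12, Cufflinks 2.2.1 and the build mm10 stand in the submitters' processing notes, without roles. Per the labels' protocols, RNA was extracted with TRIzol and poly-A selected. Of 1653 listed genes 1640 were found in GENCODE vM21, which gave gene types and exon lengths. The sources used here do not say how the list was made.

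Genes were tested with edgeR 4.0.16 (R 4.3.3; filterByExpr, TMM, robust quasi-likelihood, Benjamini-Hochberg at 0.05), with library sums over all listed genes. Standard errors come from the F statistic. Shares and ratios were compared with exact two-sided permutation tests. Alternatives were DESeq2 1.42.0, limma-voom (limma 3.58.1), other scalings, filters and thresholds, the replicate block and each library left out. The scripts were tested on simulated counts. Python 3.11.15, scipy 1.17.1 and matplotlib 3.10.9 were used otherwise.

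The members, lists and alternatives were chosen with earlier results of these data known. Named genes are the members, listed genes of the pathway lists and the 4 with the lowest SD of the log2 ratio to each member (mean count of at least 100, no Gm or Rik symbols); neighbours, markers and genes by annotation term are named outside that rule.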

Additional observations from a re-analysis of the deposited data

How the results depend on the processing

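With Yaf2KO 2 and 3 both left out, an alternative added after the data were seen, edgeR called 20 genes, with log2 fold changes of -0.33 for Slc2a3 and 0.23 for Pfkp (adjusted p = 0.685 and 0.765), the lone Yaf2KO library being assumed to vary like wild type; the differences in mean log2 value were -0.23 for the Slc2a3 share, 0.32 for the Pfkp share and -0.55 for the ratio. Under every other alternative the exact tests kept their direction for the Pfkp share (with single libraries left out -0.71 to -0.05) and for the Slc2a3 to Pfkp ratio (0.19 to 0.95), with exact permutation p from 0.2 to 1. The Slc2a3 share turned sign without wild type 3 (-0.07) and without Yaf2KO 3 (-0.13), and otherwise reached 0.24. In edgeR, Slc2a3 ran from -0.18 (without Yaf2KO 3) to 0.30 with single libraries left out and came to 2.10 at equal depth. Pfkp ran from -0.64 to -0.04 with single libraries left out, and turned to 0.024 without a low-count filter, 0.024 at a mean CPM of at least 1 and 2.03 at equal depth. Equal depth keeps, by its construction, whatever shift the listed genes share; for the other turns the cause was not tested. The number of called genes was 3, and 314 at equal depth, 10 by the DESeq2 Wald test, 0 by limma-voom (14 at an unadjusted p under 0.05), 15 without a filter, 15 at a mean CPM of at least 1, 0 at an adjusted p under 0.01, and 0 to 11 with single libraries left out: 11 when Yaf2KO 1 was dropped, 2 for Yaf2KO 3, 1 for Yaf2KO 2, and 0 for each wild-type library (16 to 21 at an unadjusted p under 0.05). Recomputing library sums after the filter, an alternative added after the data were seen like the leave-one-out values of raw counts, gave 3 calls.

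With the replicate number as a block edgeR made 0 calls (an unadjusted p under 0.05 in 18 genes), and Slc2a3 and Pfkp had log2 fold changes of 0.07 and -0.37. No label says that the numbers pair the libraries. Over genes, the deviations of libraries 1, 2 and 3 of either genotype correlated at 0.02, 0.14 and 0.14 with their namesakes, and wild type 1 correlated more with Yaf2KO 2 (0.23) than with its own number. Within numbers, the exact sign-flip p was 1, 0.75 and 0.5 for the Slc2a3 share, the Pfkp share and the ratio, where 0.25 is the smallest possible. Counting error is small for these 2 genes, whose counting intervals are narrower than the range within each genotype. The sequencing depth of the libraries is not known.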

Other observations

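The ratio of Pfkp to Dppa3, which lie on different chromosomes, had a 1.93-fold range over the 6 libraries. The SD of its log2 value was 0.33, against 0.21 to 0.27 for the 4 genes closest to Pfkp. The pair was picked after its values were seen. There were 3.30, 3.41 and 3.27 reads of Pfkp per read of Dppa3 in wild type 1 to 3, and 3.30, 1.99 and 3.85 in Yaf2KO 1 to 3. Yaf2KO 2 was the lowest and Yaf2KO 3 the highest.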
